A study of Homo sapiens with 8 samples.

Results

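The AGO2-bound RNA of A431 cells that carried a control miRNA was compared with the total RNA of the same cells, to describe which transcripts AGO2 held or lacked in the absence of added miR-634. A431 is a human epidermoid (squamous cell) carcinoma line. The cells had been transfected with miR-NC, a negative control miRNA, at 10 nM and were lysed after 24 h. RNA immunoprecipitated with an anti-AGO2 antibody (RIP) and total RNA (input) were each hybridized on 2 one-color Agilent 8 × 60K arrays, so the comparison used 4 of the 8 arrays of the series. The other 4 arrays held the input and the RIP of A431 cells given miR-634 at the same dose and time, and they enter here as the second kind of cell and in the shared estimate of the spread. The transfected control RNA was present in all miR-NC arrays, so AGO2 of untransfected cells was not measured. For the input samples the labels name a normal rabbit IgG antibody, whereas the methods of the study describe them as total RNA, and they are treated here as input. No array is known to hold the RNA of an IgG immunoprecipitate, so binding to the beads themselves was not measured.

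AGO2 is the Argonaute protein that carries a mature miRNA in the RNA-induced silencing complex. The miRNA guides it to mRNAs mainly through its seed, the bases near its 5′ end, which pair with complementary sites that lie mostly in 3′ untranslated regions, and the bound mRNA is then translated less and degraded faster. The RNA in an AGO2 immunoprecipitate is set against the input so that a transcript is not scored as bound merely for being abundant. In squamous epithelium, miR-203, miR-205, miR-21, miR-31, let-7 and the miR-17 and miR-200 families are among the known miRNAs.

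The miRNAs themselves were not measured on these arrays. The mature sequences below (RefSeq, GRCh38.p14) are those of the main families whose literature targets are described next, with the seed, bases 2 to 8 from the 5′ end, in capitals, because the seed is what the members of a family share and what defines their common targets. The other families with target lists are only named.
hsa-let-7a-5p: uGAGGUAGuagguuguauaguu
hsa-let-7b-5p: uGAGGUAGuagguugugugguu
hsa-miR-17-5p: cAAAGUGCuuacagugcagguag
hsa-miR-20a-5p: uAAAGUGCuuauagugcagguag
hsa-miR-19b-3p: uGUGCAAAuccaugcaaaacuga
hsa-miR-21-5p: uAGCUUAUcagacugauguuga
hsa-miR-16-5p: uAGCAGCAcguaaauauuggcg
hsa-miR-221-3p: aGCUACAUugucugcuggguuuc
hsa-miR-222-3p: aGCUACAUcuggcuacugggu
hsa-miR-203a-3p: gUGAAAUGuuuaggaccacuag
hsa-miR-200c-3p: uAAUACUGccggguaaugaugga
hsa-miR-141-3p: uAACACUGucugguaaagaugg
The let-7 pair, miR-17 with miR-20a, and miR-221 with miR-222 each have the same seed, whereas miR-200c and miR-141 have seeds that differ from each other. A perfect match to the let-7 seed in a transcript reads CUACCUC and a match to the seed of miR-17 reads GCACUUU. The mature miR-21-5p lies on chr17:59841273-59841294 on the plus strand, miR-17-5p on chr13:91350618-91350640 on the plus strand, miR-203a-3p on chr14:104117469-104117490 on the plus strand and miR-221-3p on chrX:45746180-45746202 on the minus strand. The mature let-7a-5p is encoded at 3 loci, on chromosomes 9, 11 and 22.

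Levels are given as log2 intensity relative to the 75th percentile of the array, and enrichment is the level in the RIP minus that in the input (log2), so that an enrichment of 1 is a 2-fold higher level in the RIP. Of the 58179 probes with a usable spot on every array, 24004 were well above background on both input arrays and 16928 on both RIP arrays. Genes count as measured if at least 1 probe passed that limit on each of the 8 arrays, as 10959 genes did. Replicate arrays lay close together, with a median SD of the log2 level per gene of 0.035 in the input and 0.060 in the RIP (n = 2 each). By limma with Benjamini-Hochberg adjustment, 78.8% of these genes passed an adjusted p of 0.05: 3676 genes (33.5%) were higher and 4965 genes (45.3%) lower in the RIP, and 1267 genes (11.6%) were over 2-fold higher and 1150 genes (10.5%) over 2-fold lower. These shares are the background for the counts below. The enrichment of all genes had a median of -0.12 and 5th and 95th percentiles of -1.24 and 1.54. The upper tail was the longer: 57 genes were over 8-fold higher and 1 gene over 8-fold lower.

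**Figure D1:**
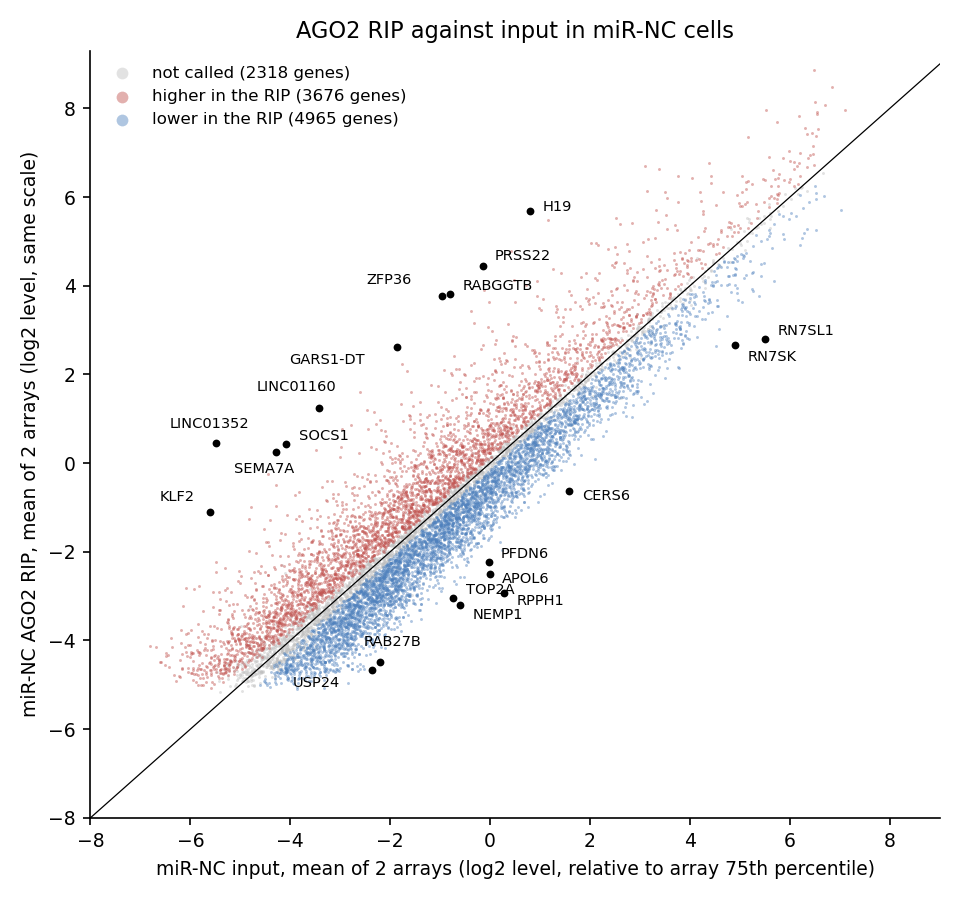
Each point is 1 of the 10959 measured genes, with its mean log2 level on the 2 miR-NC input arrays on the x axis and on the 2 miR-NC RIP arrays on the y axis, both relative to the 75th percentile of the array. The line marks equal levels, colors mark genes with an adjusted p under 0.05 in limma, and the 10 highest and 10 lowest genes are named; the 10 highest lie further from the line than the 10 lowest.

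Enrichment is relative to the array, not an amount of RNA. When the arrays were scaled on their 10 spike-in probes instead, the median enrichment was -2.56, a shift of -2.44, and 75 genes were higher and 10715 lower, so "higher" and "lower" below mean higher or lower than the bulk of transcripts. The 2 input arrays lay in the first row of the slide and the 2 RIP arrays in the second, so row position and RIP cannot be told apart. Whether a duplicate was a separate transfection is not stated, and the p-values measure only the spread between these arrays, which may be technical. Of 22434 genes with a probe on the array, 13820 had a probe well above background on both input arrays. For the label of the cells, 10 of 10 epidermoid carcinoma markers (EGFR, keratins and a dim TP63, at -4.35 and -4.42, among them) were well above background there. So were 2 of 6 fibroblast (LUM and PDGFRB), 0 of 4 leukocyte (3 of them on the array), 2 of 4 melanocyte (DCT and PMEL) and 1 of 3 endothelial markers.

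The 10 genes with the highest enrichment were a mixture of noncoding transcripts, mRNAs of short-lived regulators and mRNAs of secreted or surface proteins. LINC01352, a long noncoding RNA (NR_110797), was at -5.61 and -5.37 on the input arrays and 0.42 and 0.51 on the RIP arrays. Its enrichment of 5.95 (standard error 0.11, adjusted p = 2.55e-07), 61.9-fold, was the highest of all measured genes. H19, the imprinted noncoding RNA that is also the precursor of a miRNA, was at 0.79 and 0.82 on the input arrays and 5.68 and 5.72 on the RIP arrays, an enrichment of 4.89 (standard error 0.18). Its other passing probe gave 4.76. ZFP36, which encodes tristetraprolin, a protein that binds AU-rich elements and promotes mRNA decay, was at -0.92 and -1.02 on the input arrays and 3.76 and 3.76 on the RIP arrays. Its enrichment was 4.73 (standard error 0.052, adjusted p = 1.42e-07). These genes were named for their high enrichment, so the gap between their input and RIP arrays follows from that choice.

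Other mRNAs in the top 10 encode regulators and surface proteins. SOCS1, a suppressor of cytokine signaling, was at -3.74 and -4.42 on the input arrays and 0.49 and 0.36 on the RIP arrays, an enrichment of 4.51 (standard error 0.20). KLF2, a Krüppel-like transcription factor, had an enrichment of 4.52 (standard error 0.10), SEMA7A, a membrane-anchored semaphorin, 4.54 (standard error 0.070), and PRSS22, a serine protease, 4.59 (standard error 0.12). RABGGTB, a subunit of the enzyme that prenylates Rab GTPases, whose introns host small nucleolar RNAs, had 4.62 (standard error 0.33). Its 2 input arrays read -1.39 and -0.22, further apart than is usual here, and its other probe gave 3.90. The noncoding transcripts LINC01160 and GARS1-DT, the latter a divergent transcript, had enrichments of 4.67 and 4.48 (standard errors 0.066 and 0.49).

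Literature targets of endogenous miRNAs were higher in the RIP more often than genes as a whole. Their lists were chosen with earlier results of these data known, so the shares describe these lists and are not a test. Of 166 genes in the union of 15 target families, 125 were measured, and 67 of these (53.6%) were higher and 43 (34.4%) lower. Over 2-fold higher were 46 (36.8%), against 11.6% of all genes, and over 2-fold lower were 10 genes. Their median enrichment was 0.42, which is 0.54 above the median of all genes (0.48 from the arrays with number 1 and 0.58 from the pair with number 2). Without a filter on dim probes this difference was 0.12 (164 genes), and it was -0.13 for the targets of miR-17 and -0.19 for those of miR-21. The families differed among themselves, from a median of 1.89 for the 5 measured targets of miR-19 to -0.67 for the 5 measured targets of miR-30. Both ends depended on the filter: less the median of all genes, miR-19 went from 2.01 to 0.36 and miR-30 from -0.55 to 0.20 without one, whereas let-7 stayed at 0.93 or above in every setting of the fit. Many genes stand in several lists, so the families are not independent of each other.

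**Figure D2:**
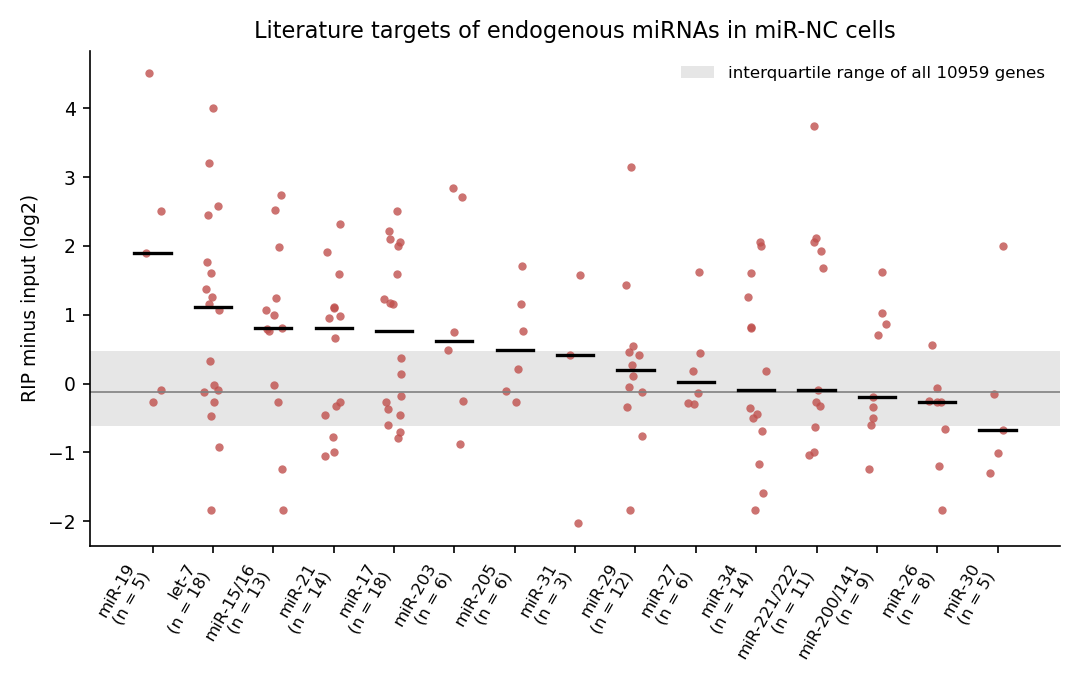
Enrichment (log2 RIP minus input in miR-NC cells, y axis) of each measured literature target, by miRNA family, with the family median as a black bar. The gray band is the interquartile range of all 10959 genes and the gray line their median; targets of miR-19, let-7, miR-15/16, miR-21, miR-17, miR-203 and miR-205 have medians above the band, and each family also has members within or below it.

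The targets of let-7, a family known for restraining growth and fetal genes, had 18 of 26 listed genes measured. Of these 11 were higher, 4 lower and 3 not called, and 10 were over 2-fold higher. HMGA2, an architectural chromatin protein of embryonic and tumor cells and the best known let-7 target, was at -1.77 and -1.74 on the input arrays and 2.21 and 2.27 on the RIP arrays. Its enrichment was 4.0 (standard error 0.046, adjusted p = 1.42e-07), 16-fold. A dimmer HMGA2 probe gave only 0.76, so the size depends on the probe. NRAS, the small GTPase, was at -2.01 and -1.97 on the input arrays and 0.46 and 0.46 on the RIP arrays, an enrichment of 2.45 (standard error 0.042). NR6A1, an orphan nuclear receptor, had 3.21 (3 probes from 1.97 to 3.65) and ARID3B, an AT-rich DNA-binding protein, 2.58 (standard errors 0.046 and 0.058).

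Of the let-7 targets with a part in growth and the cell cycle, MYC was at 0.90 and 0.91 on the input arrays and 2.50 and 2.53 on the RIP arrays, an enrichment of 1.61 (standard error 0.068). CDC25A, a phosphatase that activates cyclin-dependent kinases, had 1.06 and CDC34, a ubiquitin-conjugating enzyme, 1.26 (standard errors 0.053 and 0.054). CDK6, a kinase that drives entry into S phase and stands in 5 of the target lists, was at 0.93 and 1.0 on the input arrays and -0.94 and -0.80 on the RIP arrays, 3.57-fold lower in the RIP and the lowest of the list. DICER1 (-0.47) and HMGA1 (-0.27) were lower too, and THBS1 (-0.10) and IGF2BP2 (-0.029) were among those not called. The other probe of THBS1 gave 0.52 and that of IGF2BP2 0.48.

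The targets of the miR-17 family, whose seed lies in the oncogenic miR-17-92 cluster, split into a group that was high and a group near or below the median. Of 18 measured genes, 10 were higher and 7 lower, and 9 were over 2-fold higher and 0 over 2-fold lower. BCL2L11, which encodes the cell death protein BIM, was at -1.36 and -1.45 on the input arrays and 1.18 and 1.03 on the RIP arrays. Its enrichment was 2.51 (standard error 0.070), and its 3 probes ranged from 0.82 to 3.02. The cell cycle inhibitor CDKN1A had 2.22 (standard error 0.19). All 3 measured E2F activators were higher, with 1.15 for E2F1, 2.10 for E2F2 and 2.06 for E2F3, and E2F1 was at -0.82 and -0.88 on the input arrays and 0.29 and 0.31 on the RIP arrays. TXNIP, an inhibitor of thioredoxin, had 2.0. The pocket proteins RBL1 (-0.36) and RBL2 (-0.61), the amyloid precursor APP (-0.45) and the hypoxia factor HIF1A (-0.79) were lower, although a dimmer APP probe gave 0.57.

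SOCS1 and BCL2L11, described above, are also listed as targets of miR-19, from the same cluster. Of the 13 measured targets of miR-15/16, 9 were higher and 3 lower. CCNE1, the cyclin E that drives the start of S phase, was at -0.63 and -0.62 on the input arrays and 2.09 and 2.14 on the RIP arrays, an enrichment of 2.74 (standard error 0.050). WEE1, a kinase that holds cells before mitosis, had 2.52 (standard error 0.060). BMI1, a Polycomb protein, had -1.24.

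The 14 measured targets of miR-21, the most widely studied oncogenic miRNA, divided into 8 that were higher and 6 that were lower, with none not called. BTG2, an antiproliferative gene, was at -1.21 and -1.25 on the input arrays and 1.06 and 1.12 on the RIP arrays, an enrichment of 2.32 (standard error 0.060, adjusted p = 6.3e-07). RECK, a membrane inhibitor of metalloproteinases, had 1.91, SMAD7, an inhibitor of TGF-beta signaling, 1.6 and SPRY1, an inhibitor of receptor tyrosine kinase signaling, 1.1. Those lower included the metalloproteinase inhibitor TIMP3 (-1.0), tropomyosin TPM1 (-0.78, with 3 probes between -0.78 and -0.76) and LRRFIP1 (-1.05). PDCD4, an inhibitor of translation and a textbook target of miR-21, was not measured. It was well above background on both input arrays (-4.46 and -4.43) and on neither RIP array (-5.14 and -5.86), which puts it at least 1.72-fold lower in the RIP.

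The targets of miR-221 and miR-222 had a median near that of all genes, with members at both ends. Of 11 measured, 5 were higher, all by over 2-fold, and 5 lower. CDKN1B, the cyclin-dependent kinase inhibitor p27, was at -2.88 and -3.06 on the input arrays and 0.76 and 0.79 on the RIP arrays. Its enrichment of 3.75 (standard error 0.079, adjusted p = 3.3e-07), 13.4-fold, was the highest of the list, and its other probe gave 2.18. CDKN1C, the related inhibitor p57, had 1.92, the cell death genes BMF and BBC3 had 2.11 and 1.67, and DDIT4, an inhibitor of mTOR signaling, had 2.06. The adhesion molecule ICAM1 (-0.63), the transcription factor TRPS1 (-1.03) and FOXO3 (-0.33) were lower. The 3 FOXO3 probes disagreed in sign, from -0.54 to 0.53.

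All 6 listed targets of miR-203, a miRNA of differentiating keratinocytes, were measured, and 4 were higher and 2 lower. SOCS3, a suppressor of cytokine signaling, was at -4.86 and -4.79 on the input arrays and -1.90 and -2.07 on the RIP arrays, an enrichment of 2.84 (standard error 0.12). SKP2, a ubiquitin ligase subunit that marks p27 for degradation, was at -1.69 and -1.57 on the input arrays and 1.06 and 1.11 on the RIP arrays, an enrichment of 2.71 (standard error 0.058). SNAI2 (0.75) and TP63 (0.48), the transcription factor that maintains basal keratinocytes, were higher by less, and ABL1 (-0.26) and MSI2 (-0.89) were lower. The MSI2 probes disagreed, since a dimmer one gave 1.82.

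The targets of miR-200 and miR-141, miRNAs that keep epithelial identity, did not stand out. Of 9 measured, 3 were higher and 4 lower, with the RNA-binding protein QKI (1.63), the deubiquitinase BAP1 (1.02) and CFL2 (0.86), a cofilin, at the upper end. The other QKI probe gave 0.60. JAG1 (-0.50), SUZ12 (-0.60) and MSN (-0.34) were lower. ZEB1 and ZEB2, the main targets of this family in mesenchymal cells, were not well above background on both input arrays. Of the targets of miR-29, 6 of 12 were higher and 3 lower, and the DNA methyltransferase DNMT3B was highest, at -3.0 and -3.02 on the input arrays and 0.12 and 0.15 on the RIP arrays (3.15). Of the targets of miR-26, 1 of 8 was higher and 6 lower. The targets of miR-34, a p53-induced family, had 6 higher and 7 lower of 14, with SNAI1 at 2.0 and CD44, a surface receptor for hyaluronan, at -1.59, although its other probe gave 0.34. Of the 140 listed targets with a probe on both input arrays, 12 (8.57%) had none on either RIP array, against 15.1% of 13820 genes.

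**Figure D3:**
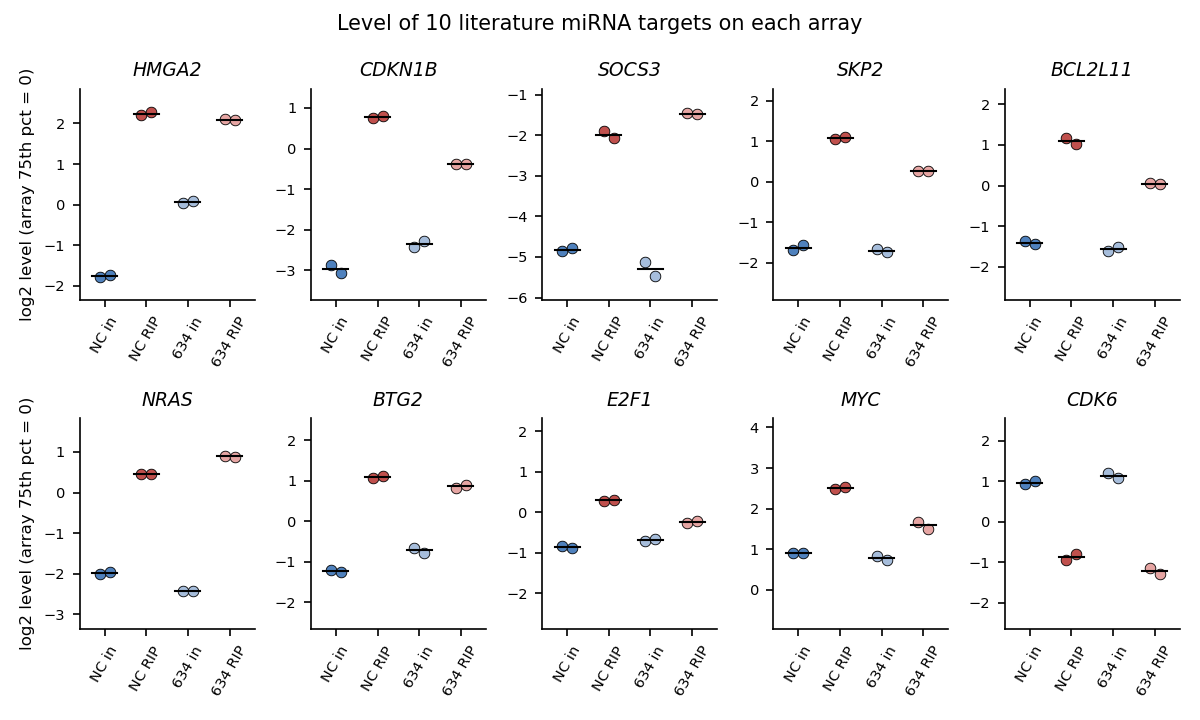
Log2 level (y axis, relative to the 75th percentile of the array, each panel spanning the same number of units) of 10 literature targets on each array; "in" is input, each label starts with the miRNA the cells were given, points are arrays and bars are means of 2. For HMGA2 through MYC the miR-NC RIP arrays lie above the input arrays, and for CDK6 below them. The panels are selected genes and do not represent the targets: of 125 measured, 67 were higher, 43 lower and 15 not called.

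The mRNAs of the miRNA machinery itself lay around the median of all genes. Of 16 measured members, 5 were higher and 8 lower, and 2 were over 2-fold higher. TNRC6A, which encodes the GW182 protein that AGO2 recruits to silence its targets, was at -2.91 and -2.86 on the input arrays and -1.08 and -1.0 on the RIP arrays, an enrichment of 1.84 (standard error 0.055, adjusted p = 9.47e-07). Its paralogs TNRC6B (-0.48) and TNRC6C (0.055, not called) did not share this. TARBP2, a partner of Dicer, had 1.15 and the helicase MOV10 0.83. The mRNA of AGO2 was at -0.30 and -0.32 on the input arrays and -0.11 and -0.11 on the RIP arrays, an enrichment of 0.20 (standard error 0.041), and AGO1 had 0.17. DROSHA (-0.57), DICER1, PRKRA (-0.67) and the editing enzyme ADAR (-0.68) were lower.

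Of the gene classes, which were also chosen with earlier results of these data known, immediate early genes stood furthest above the median. These genes encode short-lived transcription factors, phosphatases and RNA-binding proteins that are induced within minutes of a stimulus. Of 31 measured, 22 (71.0%) were higher and 5 lower, and 17 (54.8%) were over 2-fold higher, with a median of 1.26. By the rule for named genes the highest were ZFP36 and KLF2 and the lowest ATF3 (-1.11) and CCN1 (-0.58). The 3 ATF3 probes disagreed, reaching 0.57. Named after their values were seen, FOS was at -3.74 and -3.71 on the input arrays and -1.99 and -1.88 on the RIP arrays (1.79, standard error 0.068), JUNB had 2.20, and ZFP36L1 and ZFP36L2, the relatives of ZFP36, had 2.45 and 1.59. JUN, at 0.19, was little above the median.

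Cyclins and regulators of cyclin-dependent kinases came next by the share of genes that were higher, with 22 of 37 (59.5%) higher, 12 over 2-fold higher and a median of 0.37. CDKN1B and CCNE1 led it and CDK6 and CCNG1 (-1.68) ended it, although the other CCNG1 probe gave 0.053. Of the KLF, SOX and FOX transcription factors, 21 of 38 (55.3%) were higher and 7 lower. Their 6 genes over 2-fold higher included KLF2 and KLF1 (1.38), whereas FOXK1 was lowest (-1.27). The KRAB and related ZNF zinc finger genes, with 91 of 224 (40.6%) higher and 77 lower, were closer to the background. Of 345 ZNF genes on both input arrays, 91 (26.4%) had no probe on either RIP array, against 15.1% of all genes. The measured ZNF genes were dim, with a median input level of -2.82 (log2), against -1.40 for all measured genes.

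Housekeeping classes lay at or below the median of all genes. Among cytosolic ribosomal protein mRNAs, which are short, abundant and highly translated, 33 of 83 were higher and 40 lower, and their median of -0.12 was that of all genes. After quantile normalization the class differed from that median by -0.41. It was not uniform: RPL37A was at 5.49 and 5.55 on the input arrays and 7.93 and 7.98 on the RIP arrays (2.44) and RPL13 had 2.37, while RPL22L1 had -1.39 and RPL15 -1.41. RPL15 differed between its RIP arrays (3.04 and 4.25), and its other probe gave 0.18. Ribosomal proteins have many processed copies in the genome that probes may share, which makes single values of this class uncertain. Of all genes, 33.5% were higher and 45.3% lower. Oxidative phosphorylation subunits were near this background, with 23 of 78 (29.5%) higher, 40 (51.3%) lower and a median of -0.16. Mitochondrial ribosomal proteins (23 of 76 higher, 44 lower), proteasome subunits (8 of 37 higher, 25 lower) and translation factors (7 of 50 higher, 34 lower) had medians of -0.33, -0.44 and -0.49. In several of these classes a few members were exceptions, such as MRPL20 (3.01), NDUFB2 (2.44) and EIF3B (2.39).

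The replication-dependent histones, whose mRNAs end in a stem-loop in place of a poly(A) tail, had a median of -0.26, with 6 of 59 higher and 30 lower. The highest, H3C1, was at 1.6 and 1.55 on the input arrays and 3.92 and 3.84 on the RIP arrays (2.30, standard error 0.048), and the lowest, H1-2, had -1.12. These genes are close copies of each other, so values of single members are uncertain. Integrins, matrix receptors with long transcripts, had 3 of 16 higher and 9 lower, with ITGB8 (-1.81) and ITGAV (-1.77) lowest. Keratins were near the median, with 10 of 25 higher and 9 lower. KRT18 (1.47) led them and KRT10, a keratin of differentiated cells, was lowest (-1.23).

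**Figure D4:**
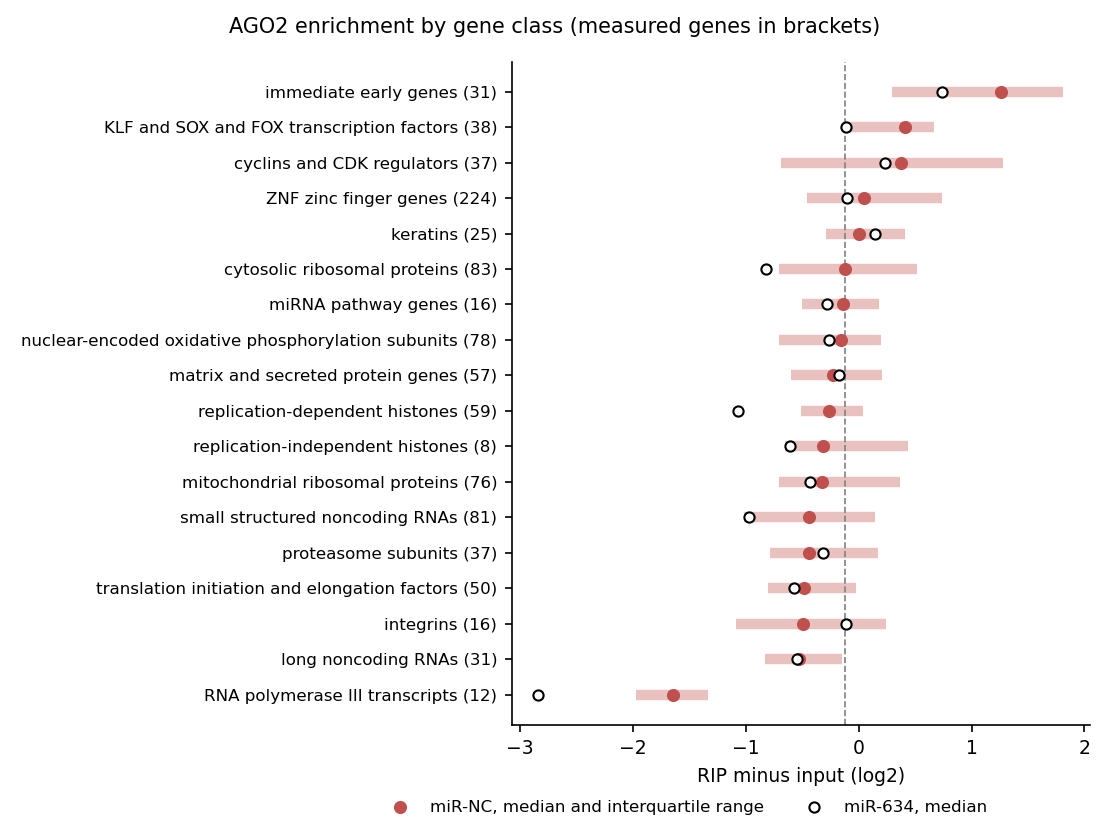
Median enrichment (log2 RIP minus input, x axis) of each gene class in miR-NC cells (filled points, bars are interquartile ranges) and in miR-634 cells (open circles), with the number of measured genes in brackets; the dashed line is the miR-NC median of all genes. Immediate early genes have the highest miR-NC median at 1.26 and RNA polymerase III transcripts the lowest at -1.65.

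Transcripts of RNA polymerase III, which makes small structural RNAs that are not templates for translation, formed the lowest of the groups described. All 12 measured members were lower and all by over 2-fold, with a median of -1.65; the group was formed after its values were seen, and 45.3% of all genes were lower and 10.5% over 2-fold lower. RPPH1, the RNA of ribonuclease P, was at 0.29 and 0.26 on the input arrays and -2.93 and -2.90 on the RIP arrays, 9.13-fold lower in the RIP (-3.19, standard error 0.055, adjusted p = 2.14e-07), the lowest value of all genes. RN7SL1, the RNA of the signal recognition particle, was at 5.53 and 5.48 on the input arrays and 2.74 and 2.87 on the RIP arrays (-2.70). RN7SK, which holds the elongation factor P-TEFb inactive, had -2.24, the vault RNA VTRNA1-3 -1.69 and RMRP, the RNA of the related ribonuclease MRP, -1.33. The 7 snaR genes ranged from -1.88 to -1.26. Their mean input levels lay between -2.10 (SNAR-G1) and 7.03 (SNAR-A3). They are a family of close copies that may share signal, so they are not independent measurements.

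Other noncoding RNAs were mixed. The 13 genes that RefSeq types as small nuclear RNA were all lower, with a median of -1.26, but 7 of them are the snaR genes. The 68 small nucleolar RNAs had a median of -0.32, with 16 higher and 34 lower. Probes for ribosomal RNA went the opposite way from the polymerase III transcripts: RNA28SN5 was at 6.83 and 6.86 on the input arrays and 8.44 and 8.51 on the RIP arrays (1.63), RNA18SN5 had 1.35 and RNA5-8SN5 2.74. These were chosen after their values were seen. Of 31 well-known long noncoding RNAs on the list, 6 were higher and 20 lower, with a median of -0.53. SNHG16, a snoRNA host, had 1.88 and NORAD, a cytoplasmic RNA that binds Pumilio proteins, 1.41, while the snoRNA hosts ZFAS1 (-1.52) and SNHG10 (-1.32) were lowest. Named after their values were seen, the nuclear RNAs NEAT1 and MALAT1 had -1.05 and -0.37, with the 3 NEAT1 probes from -1.05 to -0.006.

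The 534 genes typed as long noncoding RNA in RefSeq had a median of 0.28, higher than the -0.14 of 10143 protein-coding genes, and 87 of them (16.3%) were over 2-fold higher. Their probes were dimmer on the input, with a median level of -3.21 against -1.27 (log2), and dim genes had a higher median enrichment under the filter used. Within the dimmest 5th of genes by input level, the medians were 0.60 for 264 long noncoding and 0.29 for 1835 protein-coding genes. In the next dimmest 5th they were 0.01 and -0.27, in the third 0.07 and -0.21, in the fourth -0.05 and -0.22, and in the brightest 5th -0.25 (46 genes) and -0.20 (2102 genes). The noncoding genes were thus above the coding genes in each 5th but the brightest. With the filter on the input arrays alone, the medians of the long noncoding and coding genes differed by 0.18, in place of 0.42, and without a filter by 1.38. These are descriptions without a test.

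The mRNAs with the lowest values encode proteins of varied kinds. NEMP1, a protein of the inner nuclear membrane, was at -0.64 and -0.56 on the input arrays and -2.69 and -3.69 on the RIP arrays, an enrichment of -2.59 (standard error 0.31) with RIP arrays far apart. APOL6, an apolipoprotein L, was at 0.021 and -0.033 on the input arrays and -2.65 and -2.37 on the RIP arrays, 5.67-fold lower in the RIP. TOP2A, the topoisomerase of proliferating cells, had -2.32 (standard error 0.14), the deubiquitinase USP24 -2.29, the ceramide synthase CERS6 -2.22 and PFDN6, a prefoldin subunit, -2.21. RAB27B, a GTPase of vesicle secretion, had -2.30, but its other probe gave -0.77, and the other CERS6 probe gave -1.20. Over the 2224 genes with more than 1 passing probe, the enrichment of the probes differed by over 1 on the log2 scale in 389 (17.5%).

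Brightness of the probe on the input had little bearing on enrichment outside the dimmest genes. To keep the rank apart from the ratio, genes were ranked on input array 1 and the enrichment was taken from the arrays numbered 2. The median was 0.30 in the dimmest 5th and -0.24, -0.20, -0.21 and -0.20 in the others. The dimmest 5th also held the most genes over 2-fold higher, 21.5%. A dim gene had to be above background on the RIP arrays too to be measured. Over all 13820 genes on both input arrays, where this was not required, the median of the dimmest 5th was -0.085 and those of the others -0.18, -0.23, -0.22 and -0.20. No rise or fall with brightness was seen beyond the dimmest 5th.

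Enrichment fell with the span of the gene, from transcription start to end in RefSeq. From the shortest to the longest 5th of protein-coding genes (about 2029 genes each), the medians were 0.068, -0.021, -0.15, -0.27 and -0.38. The share over 2-fold higher fell from 15.8% to 7.10% and the share over 2-fold lower rose from 6.01% to 18.7%. The order was the same within the dimmest 5th of genes by input level (0.50 to 0.082) and within the brightest (-0.084 to -0.54). The median in miR-634 cells fell likewise, from 0.072 to -0.48. Span, which includes introns, is not the length of the mRNA, and its part in the other results was not tested.

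**Figure D5:**
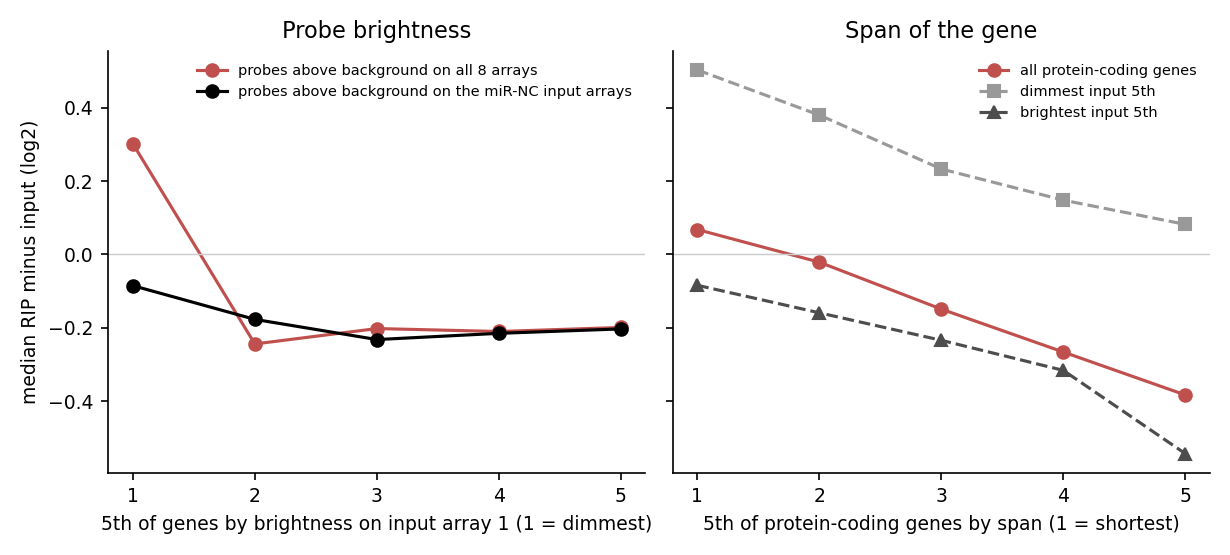
Left, median enrichment (log2 RIP minus input) of the arrays numbered 2 in 5 equal groups of genes by brightness on input array 1, for 2 filters on dim probes. Right, median enrichment in 5 equal groups of protein-coding genes by span, for all genes and for the dimmest and brightest 5th by input level; all 3 lines fall with span, while the brightness lines are flat beyond the dimmest group.

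Some transcripts were above background in only 1 of the 2 RNA pools. Of the 58179 probes, 5480 were above background on both input arrays and neither RIP array, and 22 the reverse. The RIP arrays were dimmer as a whole, with a 75th percentile of 9.5 and 9.4 (log2 signal) against 11.5 on each input array. Of their spots 33.6% and 34.5% were well above background, against 45.6% on each input array. The part of this in these counts was not tested. At the level of genes, 2088 of the 13820 on both input arrays (15.1%) had no probe on either RIP array. Most were dim on the input, with a median level of -5.70 against -1.40 for measured genes, and 110 were at least 2-fold lower in the RIP. Here a fold is a bound: a level under the lowest signal that was well above background on its array was set to that signal. SEMA3C, a secreted semaphorin, was at -2.53 and -2.53 on the input arrays and -4.77 and -5.02 on the RIP arrays. It was 5.15-fold lower by its measured levels, which were not under that signal. LINC00115 was at least 4.89-fold lower, ANAPC16, a subunit of the anaphase-promoting complex, 4.34-fold and USF3 4.28-fold. CNPY4 was at least 4.6-fold lower, but its input arrays disagreed (-1.08 and -4.97).

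The reverse, both RIP arrays and neither input array, held for 9 genes. Among them, LRRC8C-DT, SMIM5, ZNF486 and DYSF, the dysferlin gene of membrane repair, were at least 9.77-fold, 9.61-fold, 9.15-fold and 6.47-fold higher. The DYSF RIP arrays read -4.13 and -4.83. All 9 genes were at least 2-fold higher in the RIP, which follows largely from choosing genes above background only there.

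The transcripts that AGO2 held in miR-NC cells were partly the same in miR-634 cells. With miR-NC, 1267 genes were over 2-fold higher, and 612 of them (48.3%) were so in miR-634 cells as well, where 17.1% of all genes were. Of the 1150 genes over 2-fold lower, 796 (69.2%) were over 2-fold lower in miR-634 cells, where 20.7% of all genes were. The difference of enrichment itself passed the test in limma for 3079 genes (28.1%) that were higher and 4730 genes (43.2%) that were lower in miR-634 cells. Of the 125 measured literature targets, 26 were higher and 69 lower, and their median above that of all genes was 0.39 in miR-634 cells, against 0.54 in miR-NC cells. Of the 18 let-7 targets, 8 were higher and 9 lower. These directions hold relative to the array: with the spike-in probes as the scale, the median difference of all genes was 0.84 in place of -0.22, with 7410 genes higher and 215 lower in miR-634 cells.

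The difference could come from the input or from the RIP. HMGA2 had an enrichment of 2.04 in miR-634 cells (difference -1.96, adjusted p = 1.82e-06). Its RIP arrays read 2.11 and 2.08 there, about as in miR-NC cells, while its input arrays read 0.044 and 0.077, higher than in miR-NC cells. For CDKN1B the enrichment was 1.98 (difference -1.77), with input arrays at -2.43 and -2.28 and RIP arrays at -0.39 and -0.37. NRAS went the opposite way, to 3.32. Relative to the array, the difference was lower in miR-634 cells in 43.2% of all genes. It was lower in 52 of 59 replication-dependent histones (4 higher), 55 of 83 cytosolic ribosomal proteins (13 higher) and 11 of 12 polymerase III transcripts (0 higher). On the spike-in scale, 3, 8 and 0 members of these classes were lower and 11, 36 and 0 higher. The enrichment of RPL37A was 2.44 with miR-NC and -0.54 with miR-634, and H3C1 2.30 and -1.69. Relative to the array, both were above the input in the miR-NC RIP and below it in the miR-634 RIP. Both were named as the highest of their class in miR-NC cells, so a lower value in miR-634 cells follows in part from that choice. On the spike-in scale their enrichment in miR-NC cells was -0.001 and -0.132. The share of spots well above background was lower on the miR-NC RIP arrays (33.6% and 34.5%) than on the miR-634 RIP arrays (40.0% each). The part of this in the difference was not tested.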

How the data were processed

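RNA from the AGO2 RIP and total RNA (input) of A431 cells was labeled with 1 dye and measured on 8 Agilent 8 × 60K arrays, 2 per group, on 1 slide that was scanned once. The authors deposited the scanner files, whose processed signal is an intensity after background subtraction and spatial detrending within each array (Agilent Feature Extraction 12.0.1.1 per the file headers, whereas the submitters' processing notes name 9.1). They also deposited a table of log2 values from GeneSpring, which matched log2 signals less the array's 75th percentile (of all probes), centered on each probe's median (Pearson r = 1.0 on every array). That table served as an alternative. Its column medians lay between -0.441 and 0.874.

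Control spots and spots flagged as outliers were left out, replicate spots were averaged per probe, and the log2 intensities were shifted by the 75th percentile of the array over the 16808 probes well above background on all 8 arrays. No spot was saturated. RefSeq accessions of 31094 of 33069 probes were matched to a symbol in the RefSeq table (GRCh38.p14), which gave 22434 symbols; the array was designed on another build, so no gene coordinates are given. The brightest passing probe stood for a gene. The 4 group means were fitted over all 8 arrays with limma 3.58.1 in R 4.3.3 (residual degrees of freedom 4, prior 2.349), with Benjamini-Hochberg adjustment over 10959 genes and a threshold of 0.05. The fit was tested on simulated data with known changes in a small share of the genes. Far more genes were called here and the simulated arrays were not rescaled, so that test does not cover the scaling or the share of calls. Gene lists were described by counts and medians, without a set test. The number of arrays limits the precision.

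The members and lists were chosen with earlier results of these data known. The genes named are taken from the 10 highest and 10 lowest genes, the measured members of the main target families and the miRNA pathway, the 2 highest and 2 lowest members of every other list, and the 5 largest bounds in either direction among probes above background in 1 pool; genes chosen after their values were seen are marked. Alternatives covered background correction, normalization, the filter on dim probes, the choice of probe, the variance model, the samples in the fit, the replicate number as a block, each array left out in turn and the t-test of the methods. The brightest probe on the input arrays, the span of the gene, the polymerase III group and further filters for the brightness groups were added after seeing the data. Protein length was not used here. Some genes that the rule names are not reported here.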

Additional observations from a re-analysis of the deposited data

Results flagged for a closer look

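Of 122 measured genes named above, 94 had an enrichment that differed between miR-634 and miR-NC cells by the test of the difference in limma (adjusted p under 0.05, 2 arrays per group), where 28.1% of all genes were higher and 43.2% lower. Many of the named genes were chosen for a high or low enrichment in miR-NC cells, which is part of the difference. The counts below therefore follow in part from that choice and are not a result about these genes. Each value below is the log2 enrichment of the miR-634 cells less that of the miR-NC cells, relative to the array, and no cause was tested. The difference was higher in 20 genes, namely USP24 (1.83), FOS (1.80), CDC34 (1.70), TNRC6B (1.36), TPM1 (1.34), ATF3 (1.27), TIMP3 (1.22), THBS1 (1.21), APP (1.03), SOCS3 (0.99), NRAS (0.86), CDC25A (0.86), SMAD7 (0.75), JAG1 (0.72), CERS6 (0.63), FOXK1 (0.61), ITGAV (0.50), HMGA1 (0.47), E2F2 (0.35) and CCN1 (0.21). It was lower in 74 genes. Those that are listed targets of endogenous miRNAs were DNMT3B (-2.79), HMGA2 (-1.96), CDKN1B (-1.77), CDKN1A (-1.44), SPRY1 (-1.38), CFL2 (-1.13), SNAI2 (-1.06), NR6A1 (-1.04), IGF2BP2 (-1.03), BCL2L11 (-0.90), MYC (-0.79), SKP2 (-0.74), BTG2 (-0.74), E2F1 (-0.72), RBL1 (-0.66), LRRFIP1 (-0.63), CCNE1 (-0.63), E2F3 (-0.62), RBL2 (-0.62), CDKN1C (-0.60), TXNIP (-0.53), ICAM1 (-0.52), CDK6 (-0.52), CD44 (-0.45), ARID3B (-0.38), SUZ12 (-0.37), DICER1 (-0.35), MSN (-0.34) and HIF1A (-0.24). The others were H3C1 (-4.0), EIF3B (-2.98), RPL37A (-2.98), RABGGTB (-2.75), KLF2 (-2.63), RPL13 (-2.59), KRT18 (-2.17), GARS1-DT (-1.85), RNA5-8SN5 (-1.80), RNA18SN5 (-1.66), LINC01160 (-1.58), RMRP (-1.46), RN7SK (-1.41), LINC01352 (-1.39), SNAR-A3 (-1.36), SNHG16 (-1.36), TNRC6A (-1.31), RPPH1 (-1.31), KLF1 (-1.26), RN7SL1 (-1.22), PRSS22 (-1.21), RNA28SN5 (-1.09), SEMA7A (-1.01), JUNB (-0.94), ZFP36L2 (-0.86), PFDN6 (-0.82), KRT10 (-0.82), VTRNA1-3 (-0.81), AGO1 (-0.79), H19 (-0.78), RPL22L1 (-0.64), MRPL20 (-0.61), AGO2 (-0.59), NDUFB2 (-0.57), DROSHA (-0.56), ZFP36 (-0.56), ZFAS1 (-0.55), JUN (-0.50), MALAT1 (-0.43), PRKRA (-0.40), NEAT1 (-0.40), H1-2 (-0.35), MOV10 (-0.33), NORAD (-0.27) and ADAR (-0.21). In 16 of the 94 genes the 2 kinds of cell were called in opposite directions. The share of all genes called so was not counted, so whether this number is particular to the named genes is not known. APP (whose other probe gave 0.57 in miR-NC cells), HMGA1, JAG1, TIMP3, TNRC6B and TPM1 were lower in the miR-NC RIP and higher in the miR-634 RIP. AGO1, AGO2, CFL2, EIF3B, H3C1, KRT18, RPL13, RPL37A, SNAI2 and SPRY1 were higher in the miR-NC RIP and lower in the miR-634 RIP.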

How the results depend on the processing

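Counts of genes higher and lower in the miR-NC RIP stayed within 3379 to 3900 and 4483 to 5024 under the alternatives of array-based scaling, background correction, probe choice, variance model, samples and the filter on the 4 miR-NC arrays, with 3379 to 3614 and 4483 to 4811 when 1 array was left out. With the filter on the input arrays alone they were 3768 and 5863, and without a filter 9985 and 5689, so that 63.7% of the calls were higher in place of 42.5%. The methods' t-test gave 3252 and 4352 at an unadjusted p under 0.05 and 2954 and 3950 after Benjamini-Hochberg adjustment. The numbers of the arrays mark no known pairing (correlation of the input and RIP deviations 0.069 in miR-NC and 0.082 in miR-634 cells, 2 pairs each), and with the replicate number as a block 3652 genes were higher and 4910 lower. On the spike-in scale, 75 were higher and 10715 lower, and the difference between the cells was higher in 7410 and lower in 215 genes. 42 named genes then changed sign, namely AGO1 (-2.266), AGO2 (-2.237), BAP1 (-1.413), BBC3 (-0.763), BMF (-0.323), BTG2 (-0.117), CDC25A (-1.372), CDC34 (-1.173), CDKN1A (-0.216), CDKN1C (-0.514), CFL2 (-1.574), DDIT4 (-0.375), E2F1 (-1.285), E2F2 (-0.333), E2F3 (-0.375), EIF3B (-0.046), FOS (-0.644), H3C1 (-0.132), JUN (-2.248), JUNB (-0.236), KLF1 (-1.057), KRT18 (-0.971), MOV10 (-1.601), MYC (-0.829), NORAD (-1.028), QKI (-0.810), RECK (-0.526), RNA18SN5 (-1.086), RNA28SN5 (-0.808), RPL13 (-0.067), RPL37A (-0.001), SMAD7 (-0.839), SNAI1 (-0.435), SNAI2 (-1.686), SNHG16 (-0.558), SPRY1 (-1.335), TARBP2 (-1.292), TNRC6A (-0.591), TNRC6C (-2.382), TP63 (-1.954), TXNIP (-0.434) and ZFP36L2 (-0.845). With the mean of the probes, APP (0.059), IGF2BP2 (0.227), MSI2 (0.468) and THBS1 (0.212) changed sign. IGF2BP2 did so too after normexp (0.109), quantile (0.018) and median (0.021) scaling and without input array 1 (0.033, with a range from -0.091 when 1 array was left out), and TNRC6C without RIP array 2 (-0.036, range to 0.146). The difference lower in miR-634 cells was called in 8658 genes without a filter, and when 1 array was left out it was called higher in 2840 to 3128 and lower in 4257 to 4746 genes. The literature targets lay 0.405 above the median of all genes with the filter on the input arrays, 0.124 without a filter and 0.508 to 0.578 when 1 array was left out. The median of the dimmest 5th was 0.323 when ranked on input array 2, 0.318 with the filter on the 4 miR-NC arrays and -0.085 with that on the input arrays. The shortest minus the longest 5th by span ranged from 0.332 to 0.516 in all settings of the fit. Probes above background on the RIP only numbered 889 when 1 array sufficed. The causes of these changes were not tested. The comparison by protein length was not run. With 2 arrays per group on 1 slide, the p-values measure only the spread between these arrays, and dim transcripts are set by the background of the RIP arrays.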
